A study of Sus scrofa with 8 samples.

Results

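Chemokines are small secreted proteins that leukocytes follow along a concentration gradient, and each acts through G protein-coupled receptors on the cells it attracts. CXC chemokines such as CXCL8 and CXCL2 draw neutrophils, CC chemokines such as CCL2, CCL4 and CCL5 draw monocytes and lymphocytes, and CCL20, CCL25 and CCL28 are made by epithelium and guide dendritic cells, T cells and antibody-producing cells to mucosal surfaces. In the gut wall, some chemokines are made continuously, while others are switched on by bacterial products and by cytokines such as TNF and IL-1. The genes described here are 10 chemokines of the gut wall, CXCL8, CXCL2, CXCL12, CCL2, CCL3L1, CCL4, CCL5, CCL20, CCL25 and CCL28. They were chosen by name, with earlier results of these data known. Each had at least 1 probe, so that all 10 of 10 were measured, out of 3216 gene symbols on the array. Where a gene had several probes, the brightest over all arrays stood for it.

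Transcripts were measured in the wall of the mid-jejunum, a part of the small intestine, of Duroc × Landrace piglets aged 25 days, on Agilent 1-colour arrays with 1 piglet per array. The 4 suckling piglets stayed with the sow. The 4 weaned piglets had been moved from the sow to nursery pens at 21 days and ate a basal diet, so they were sampled 4 days after weaning. Both groups came from the same 4 litters, 1 piglet per litter and group, but which litter each replicate came from is not given in the sources used here, and each sample was a whole-wall segment of about 2 cm. In such tissue fewer cells of a type and less RNA per cell cannot be told apart.

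Levels below are log2 signals minus the 75th percentile of the array, so that 0 marks that percentile, and a difference of 1 is 2-fold. All suckling arrays lay on 1 slide and all weaned arrays on another, each with its own scan, and the scanner software marked the suckling arrays for evaluation and the weaned arrays as in range. The effects of slide, scan and weaning cannot be told apart. Suckling replicate 1 stood apart: the 75th percentile of its intensity was 244.0, against 316 to 393 on the other arrays, and its mean correlation with its own group across tested probes was 0.958, against 0.972 to 0.985 for the others. The enterocyte markers with a probe, 7 of 12 listed, had a median level of 5.61 on that array, against 7.66 to 8.54 in the other suckling and 7.00 to 7.82 in the weaned piglets. Markers of the labelled tissue were present, and no marker of the 10 cell type lists was below background on every array. Each chemokine value is therefore given for every piglet, and each difference with and without suckling replicate 1 where that array moved it.

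Of the 10 chemokines, 9 had a higher mean in weaned than in suckling piglets, where 54.9% of all 30554 tested probes did. This count was added after seeing the data. The median log2 difference of the 10 was 0.50, against 0.04 for all tested probes. Without regard to direction, the median size of the difference was 0.50, against 0.22 for all tested probes. The chemokines also spread more within the groups. Their median SD was 0.61 in suckling and 0.48 in weaned piglets, against 0.33 and 0.25 for all tested probes. None of the 10 passed limma's test at an adjusted p of 0.05 over all probes, a threshold that 0.177% of tested probes passed, 0.173% as higher and 0.00327% as lower. At an unadjusted limma p under 0.05, 3 of the 10 were higher and none lower, namely CXCL8, CCL3L1 and CCL28, where 7.75% of tested probes were higher and 4.58% lower. CXCL8 was the 1 chemokine whose groups did not overlap, where 7.76% of tested probes had groups that did not overlap, 4.93% with all weaned piglets higher. All 10 probes were well above background on all 8 arrays and none was saturated, so none of these values is a bound.

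The count of chemokines with a higher mean was 7 without suckling replicate 1 and 8 to 10 without any other array. The count at an unadjusted limma p under 0.05 was 5 of 10 without suckling replicate 1, where 13.2% of all tested probes were higher by that measure. It was 1 of 10, CXCL8 alone, without suckling replicate 2 or weaned replicate 1, where 6.16% and 5.08% of tested probes were. The count of chemokines whose groups did not overlap was 2 without suckling replicate 1, with CCL2 added, and 2 without weaned replicate 4, with CCL5 added. It was 3 without weaned replicate 3, with CCL3L1 and CCL28 added. Fewer arrays also let more probes separate: without these 3 arrays in turn, 20.5%, 11.2% and 13.1% of all tested probes had groups that did not overlap.

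**Figure D1:**
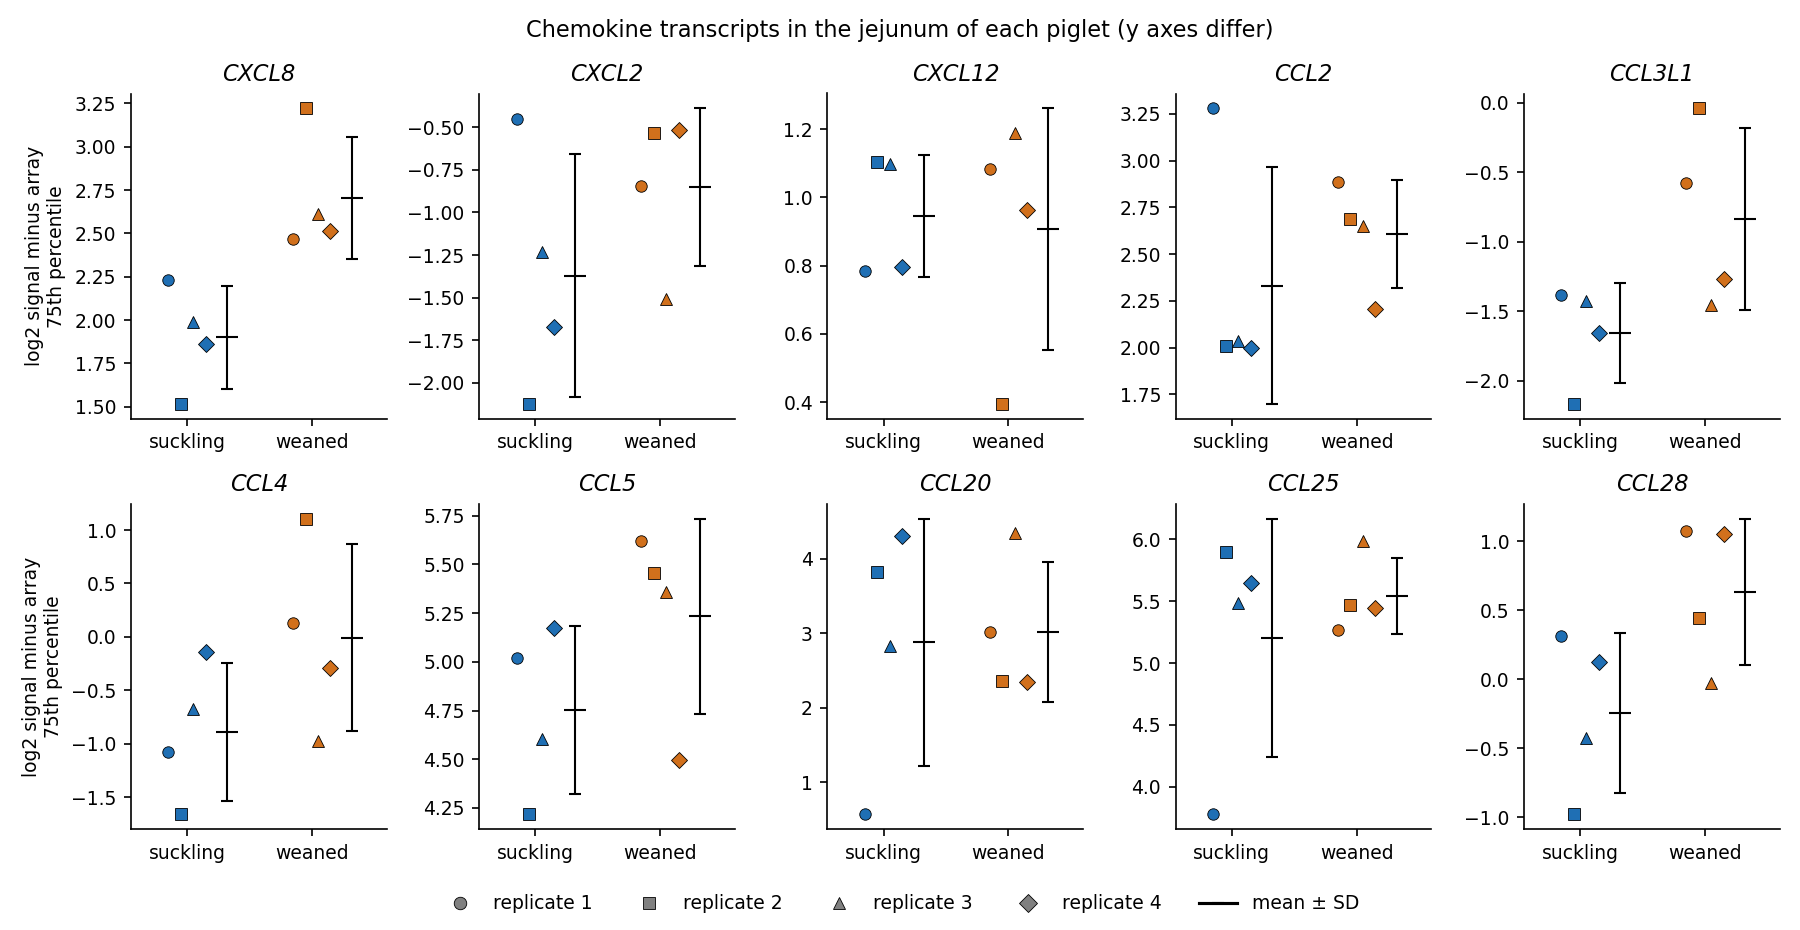
Log2 signal minus the array's 75th percentile (y axis, a separate scale for each gene) for 10 chemokines in 4 suckling and 4 weaned piglets. Each symbol is 1 piglet, its shape gives the replicate number, and the black bar is the mean ± SD of the group; the 2 groups of CXCL8 do not overlap, while those of the other 9 genes do.

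The neutrophil-attracting chemokines were CXCL8, also called interleukin 8, and CXCL2, both of which act on CXCR2. CXCL8 had levels of 2.23, 1.51, 1.99 and 1.86 in suckling replicates 1 to 4 and of 2.47, 3.22, 2.61 and 2.51 in weaned replicates 1 to 4. All weaned piglets were above all suckling piglets, although suckling replicate 1 and weaned replicate 1 were only a little apart, and weaned replicate 2 was the highest. The mean was 1.90 ± 0.30 in suckling and 2.70 ± 0.35 in weaned piglets (SD, n = 4 per group), a 1.74-fold difference with a 95% interval of 1.23 to 2.47. Weaned minus suckling, the log2 difference was 0.80 (SE 0.22, limma adjusted p = 0.230, unadjusted p = 0.00572).

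Leaving out any 1 array kept the CXCL8 log2 difference between 0.63 and 0.91, and the limma adjusted p between 0.0737 and 0.467. CXCL8 was thus higher in weaned piglets in each of these comparisons, but did not pass the threshold over all probes in any.

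CXCL2 had levels of -0.45, -2.12, -1.23 and -1.67 in suckling and of -0.85, -0.53, -1.51 and -0.52 in weaned replicates 1 to 4. The highest value of all 8 was that of suckling replicate 1, and the groups overlapped. The log2 difference was 0.52 (limma adjusted p = 0.601, SE 0.37), and 0.82 without suckling replicate 1 (limma adjusted p = 0.160), but 0.27 without suckling replicate 2 (limma adjusted p = 0.839). The 2 probes of CXCL2 gave log2 differences of 0.52 and 0.44, and both were lowest in suckling replicate 2.

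The receptors CXCR1 and CXCR2 were not analysed here. Neutrophil markers with a probe numbered 8 of 12 listed, and none passed the threshold. Their summed level lay between 1.69 and 1.99 in suckling and between 1.73 and 2.51 in weaned piglets, so the groups overlapped. The marker with the highest mean in that sum was ELANE, at 1.27 in suckling and 1.25 in weaned piglets. The 3 S100 calgranulins, abundant proteins of the neutrophil cytoplasm, were highest in weaned replicate 1, where S100A8 was at -2.49, while S100A8 was lowest in weaned replicate 3 at -7.04 and was well above background on 3 of 4 weaned arrays. CXCL8 was highest in weaned replicate 2, where S100A8 was at -4.20.

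CCL2, also called MCP-1, attracts monocytes through CCR2. Its levels were 3.28, 2.01, 2.04 and 2.00 in suckling and 2.89, 2.69, 2.65 and 2.20 in weaned replicates 1 to 4. Suckling replicates 2, 3 and 4 were nearly equal and below all weaned piglets, while suckling replicate 1 was above all 7 others. The mean was 2.33 ± 0.63 in suckling and 2.61 ± 0.29 in weaned piglets (SD, n = 4 per group), with a log2 difference of 0.28 (limma adjusted p = 0.754, SE 0.31). Without suckling replicate 1 the difference was 0.59 (limma adjusted p = 0.113, SE 0.18), and without suckling replicate 2, 3 or 4 it was 0.16 to 0.18. The 2 probes of CCL2 had the same highest array, and the second gave a log2 difference of 0.21.

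CCR2, the receptor of CCL2 on monocytes, had levels of -0.78, -1.71, -1.81 and -1.81 in suckling and of -0.63, -1.94, -2.14 and -1.62 in weaned replicates 1 to 4. The high values were those of replicate 1 in both groups, and CCL2 was also highest in replicate 1 of each group. The log2 difference of CCR2 was -0.06 (limma adjusted p = 0.962, SE 0.36), and 0.19 without suckling replicate 1. Macrophage and monocyte markers with a probe numbered 7 of 12 listed, of which 6 were tested. All 6 had a higher mean in weaned piglets, where 54.9% of all tested probes did, and none passed the threshold. The summed level of the 7 markers with a probe was 4.97 to 5.25 in suckling and 5.23 to 5.77 in weaned piglets. Their part in the CCL2 values was not tested.

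CCL3L1, CCL4 and CCL5 are CC chemokines made by activated macrophages, T cells and natural killer cells. In the RefSeq gene table of the assembly Sscrofa11.1, CCL4 and CCL3L1 lie next to each other on chromosome 12 with no protein-coding gene between them, 4 protein-coding genes separate CCL3L1 from CCL5 and 21 separate CCL5 from CCL2. The first 2 belong to a family of similar genes, and a probe may also bind the product of a neighbour, so their values are uncertain to that extent.

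CCL3L1 had levels of -1.39, -2.17, -1.43 and -1.66 in suckling and of -0.58, -0.04, -1.46 and -1.27 in weaned replicates 1 to 4. Of the weaned piglets, 3 were above all suckling piglets, and weaned replicate 3 lay within the suckling range. Weaned minus suckling, the log2 difference was 0.82 (SE 0.33, 95% interval 0.08 to 1.56, limma adjusted p = 0.363), a 1.77-fold higher mean.

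CCL4 had levels of -1.08, -1.66, -0.68 and -0.14 in suckling and of 0.13, 1.11, -0.98 and -0.29 in weaned replicates 1 to 4. Like CCL3L1 it was highest in weaned replicate 2, then in weaned replicate 1, and lowest in suckling replicate 2. Its log2 difference of 0.88 was, with that of CCL28, the largest of the 10 but had an interval from -0.15 to 1.92 (limma adjusted p = 0.477, SE 0.46), because the groups spread by 0.64 and 0.87 (SD, n = 4 per group). Without weaned replicate 2 the difference of CCL4 was 0.51, and without weaned replicate 3 it was 1.2.

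CCL5, also called RANTES, had levels of 5.02, 4.22, 4.60 and 5.17 in suckling and of 5.62, 5.45, 5.36 and 4.50 in weaned replicates 1 to 4. Here weaned replicates 1, 2 and 3 were above all suckling piglets, and weaned replicate 4 was below all of them except suckling replicate 2. The log2 difference was 0.48 (limma adjusted p = 0.549, SE 0.30), with 0.72 without weaned replicate 4 and 0.30 without suckling replicate 2. The second probe of CCL5 gave 0.34, with the same highest and lowest arrays among the weaned piglets.

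CCR1, a receptor for CCL3L1 and CCL5, did not pass the threshold. Its levels were -0.54, -0.15, -0.61 and -0.66 in suckling and 0.41, -0.21, -1.14 and -0.23 in weaned replicates 1 to 4, so that the weaned piglets held both the highest and the lowest value. The log2 difference of CCR1 was 0.20 (limma adjusted p = 0.825, SE 0.30), and -0.035 without weaned replicate 1.

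Markers of natural killer and cytotoxic cells, known sources of CCL4 and CCL5, had a probe for 8 of 11 listed genes. Of the 8 tested, 7 had a higher mean in weaned piglets, where 54.9% of all tested probes did, and none passed the threshold. Their summed level was 5.00 to 5.63 in suckling and 5.92 to 6.15 in weaned piglets. The groups did not overlap in this sum, where 4.93% of single tested probes had all weaned piglets higher. The brightest signal in that sum was that of GZMB, granzyme B, at a mean of 4.34 in suckling and 5.38 in weaned piglets. The median level over the list overlapped, at -1.03 to 0.54 in suckling and -0.31 to 0.84 in weaned piglets. In suckling replicate 2, where CCL3L1, CCL4 and CCL5 were lowest, the median level of this list was -1.03, against 0.14 to 0.54 in the other suckling piglets. GZMB, which weighs most in the sum, went the other way: at 5.10 it was highest among the suckling piglets in that replicate. T cell markers, with a probe for 8 of 12, had summed levels of 2.66 to 3.24 in suckling and 2.62 to 3.28 in weaned piglets, and their median was also lowest in suckling replicate 2, at -1.19. The part of these cells in the chemokine values was not tested.

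**Figure D2:**
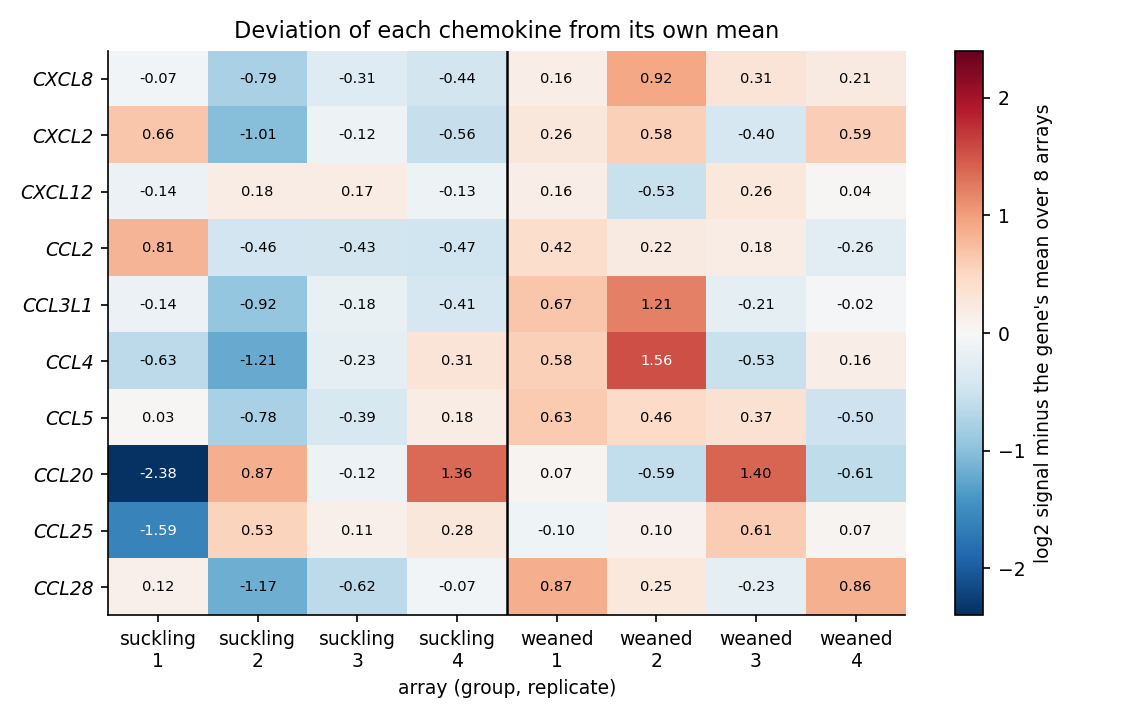
Log2 signal of each chemokine (rows) on each array (columns) minus the gene's mean over the 8 arrays, with the value printed in each cell and the colour scale in log2 units. Suckling replicate 2 is the lowest array for 6 of the 10 genes, while suckling replicate 1 is far below the others for CCL20 and CCL25 and above them for CCL2 and CXCL2.

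The arrays differed in how the 10 chemokines lay on them. Suckling replicate 2 was the lowest of all 8 arrays for 6 genes, CXCL8, CXCL2, CCL3L1, CCL4, CCL5 and CCL28, and the highest of the suckling arrays for CXCL12 and CCL25. Suckling replicate 1 was the lowest of all for CCL20 and CCL25 and the highest of all for CXCL2 and CCL2. In the weaned group, replicate 2 was the highest of all for CXCL8, CCL3L1 and CCL4 and replicate 3 for CXCL12, CCL20 and CCL25. Weaned replicate 1 was above the gene's own mean for 9 of 10 chemokines and suckling replicate 3 for 2 of 10.

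CCL20 is an epithelial chemokine that attracts cells bearing CCR6, among them dendritic cells and T cells, to the tissue above lymphoid follicles. Its levels were 0.57, 3.82, 2.83 and 4.31 in suckling and 3.02, 2.36, 4.35 and 2.34 in weaned replicates 1 to 4. The suckling piglets thus held both the lowest and the second highest value, and the range within the group was 3.74. The SD was 1.66 in suckling and 0.94 in weaned piglets (n = 4 per group), against a median over all tested probes of 0.33 and 0.25.

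With this spread the log2 difference of CCL20 was 0.14 with an interval from -1.64 to 1.92 (limma adjusted p = 0.958, SE 0.79), so that neither a 3-fold higher nor a 3-fold lower level in weaned piglets lay outside it. Without suckling replicate 1 the difference was -0.63 (limma adjusted p = 0.521, SE 0.54), and without suckling replicate 4 it was 0.61. It was -0.31 without weaned replicate 3. The direction of CCL20 between the groups therefore changed with single arrays. CCR6 was not analysed here.

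CCL25, also called TECK, is made by enterocytes of the small intestine and draws T cells and IgA-producing plasma cells that carry CCR9. Its levels were 3.78, 5.90, 5.49 and 5.65 in suckling and 5.27, 5.47, 5.98 and 5.44 in weaned replicates 1 to 4. Apart from suckling replicate 1, all 7 values lay between 5.27 and 5.98. Weaned minus suckling, the log2 difference was 0.34 (limma adjusted p = 0.789, SE 0.43) with all arrays and -0.14 (limma adjusted p = 0.732, SE 0.20) without suckling replicate 1. Leaving out suckling replicate 2 gave 0.57, and leaving out weaned replicate 3 gave 0.19.

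CCR9, the receptor of CCL25, had levels of 1.30, 0.52, 0.22 and 0.99 in suckling and of 0.70, 0.93, -0.02 and 0.51 in weaned replicates 1 to 4. It was highest in suckling replicate 1, where CCL25 was lowest, and lowest in weaned replicate 3, where CCL25 was highest. Its log2 difference was -0.23 (limma adjusted p = 0.785, SE 0.28), and -0.40 to -0.043 with 1 array left out, nearest to 0 without weaned replicate 3 or suckling replicate 1. The enterocyte markers were likewise low in suckling replicate 1: their summed level was 9.11 there, 11.17 or more in the other suckling piglets and 9.86 to 10.95 in the weaned piglets. The part of enterocyte content in the CCL20 and CCL25 values was not tested.

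CCL28 is made by mucosal epithelium and attracts IgA-producing plasma cells through CCR10 and eosinophils through CCR3. Its levels were 0.31, -0.98, -0.43 and 0.12 in suckling and 1.07, 0.44, -0.03 and 1.05 in weaned replicates 1 to 4. Of the weaned piglets, 3 were above all suckling piglets, and weaned replicate 3 was below suckling replicates 1 and 4. The mean was -0.24 ± 0.58 in suckling and 0.63 ± 0.53 in weaned piglets (SD, n = 4 per group), 1.84-fold higher, with a 95% interval of 1.07 to 3.14. The log2 difference was 0.88 (limma adjusted p = 0.357, SE 0.34), and 1.06 without suckling replicate 1 (limma adjusted p = 0.129).

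Both receptors of CCL28 had a lower mean in weaned piglets, with wide intervals. CCR10 had levels of 2.80, 0.33, 1.12 and 1.95 in suckling and of 1.23, 0.72, 0.16 and 1.68 in weaned replicates 1 to 4, a log2 difference of -0.60 (SE 0.52, interval -1.79 to 0.58, limma adjusted p = 0.679). Without suckling replicate 1, its highest array, the difference of CCR10 was -0.19. Leaving out suckling replicate 2 gave -1.01, and leaving out weaned replicate 3 gave -0.34. CCR3 had a log2 difference of -0.81 (limma adjusted p = 0.621, SE 0.61), and its lowest value, -4.85, was that of weaned replicate 4. The CCR3 difference was -0.24 without that array and -0.47 without suckling replicate 1. Goblet, endocrine and Paneth cell markers, with a probe for 7 of 10, had a summed level of 5.92 to 7.62 in suckling and 7.89 to 8.44 in weaned piglets. The groups did not overlap in this sum, where 4.93% of single tested probes had all weaned piglets higher. Of the 7 markers, however, 3 had a higher and 4 a lower mean in weaned piglets. The brightest signal in that sum was that of LYZ, lysozyme, at a mean of 6.15 in suckling and 7.93 in weaned piglets, while the median level over the list was 0.99 to 1.4 in suckling and 0.26 to 1.06 in weaned piglets. Their part in the CCL28 values was not tested. B and plasma cell markers had a probe for 3 of 11 listed genes, and their summed level lay between -2.19 and -1.14 in suckling and between -1.73 and -0.91 in weaned piglets.

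CXCL12 is made by stromal and vessel-associated cells and holds lymphocytes and progenitor cells in tissues through CXCR4, while ACKR3 takes it up without signalling through G proteins. CXCL12 was the chemokine closest to equal between the groups and the one of the 10 with a lower mean in weaned piglets. Its levels were 0.78, 1.10, 1.10 and 0.80 in suckling and 1.08, 0.39, 1.19 and 0.96 in weaned replicates 1 to 4. Weaned replicate 2 was the one value clearly below the rest, and the remaining 7 lay between 0.78 and 1.19. Weaned minus suckling, the log2 difference was -0.04 with an interval from -0.49 to 0.42 (limma adjusted p = 0.953, SE 0.20), and 0.13 without weaned replicate 2. In that array smooth muscle markers, with a probe for 4 of 8, were also at their lowest, with a median level of 3.84 against 5.18 to 5.62 in the other weaned piglets. The fibroblast median was 3.44 there, against 3.67 to 4.44, and that value was COL1A2. The remaining fibroblast markers, DCN, LUM, THY1 and SPARC, were lowest among the weaned piglets in replicate 1, at 4.95, 1.05, -4.73 and 4.58. The part of these cells in the CXCL12 values was not tested.

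**Figure D3:**
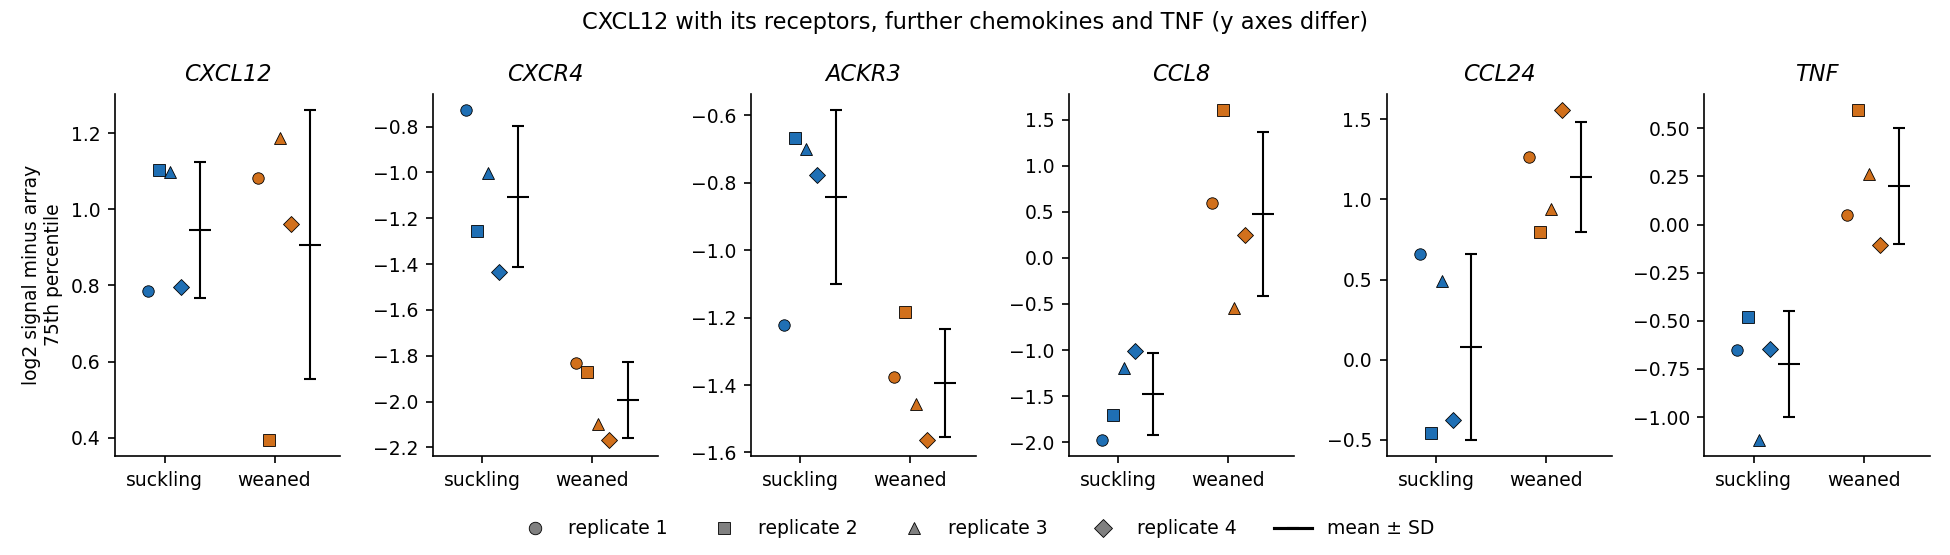
Log2 signal minus the array's 75th percentile (y axes differ) for CXCL12, its receptors CXCR4 and ACKR3, the chemokines CCL8 and CCL24 and the cytokine TNF in 4 suckling and 4 weaned piglets, with the mean ± SD of each group as black bars. The groups of CXCR4, CCL8, CCL24 and TNF do not overlap, while those of CXCL12 and ACKR3 do. Over all tested probes 7.76% had groups that did not overlap, and CCL8, CCL24 and TNF were picked for a small p.

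Both receptors of CXCL12 had a lower mean in weaned piglets. CXCR4 had levels of -0.73, -1.26, -1.0 and -1.44 in suckling and of -1.83, -1.87, -2.10 and -2.17 in weaned replicates 1 to 4, so that the groups did not overlap. CXCR4 was the 1 of 14 tested receptors without overlap, where 2.83% of all tested probes had all weaned piglets lower. Its log2 difference of -0.89 (limma adjusted p = 0.139, SE 0.19) corresponds to a weaned level of 0.541 times the suckling level, with an interval on the log2 scale from -1.31 to -0.47. ACKR3 had levels of -1.22, -0.67, -0.70 and -0.78 in suckling and of -1.38, -1.18, -1.46 and -1.56 in weaned replicates 1 to 4, and overlapped between the groups only through suckling replicate 1 and weaned replicate 2. Its log2 difference was -0.55 (limma adjusted p = 0.269, SE 0.17), and -0.68 (limma adjusted p = 0.0562) without suckling replicate 1. Endothelial markers, with a probe for 6 of 10, had a summed level of 4.02 to 4.16 in suckling and 3.84 to 3.86 in weaned piglets. The groups did not overlap in this sum, where 2.83% of single tested probes had all weaned piglets lower. The median level of the endothelial markers overlapped, at 0.97 to 1.33 in suckling and 0.99 to 1.14 in weaned piglets. The part of these markers in the receptor values was not tested.

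**Figure D4:**
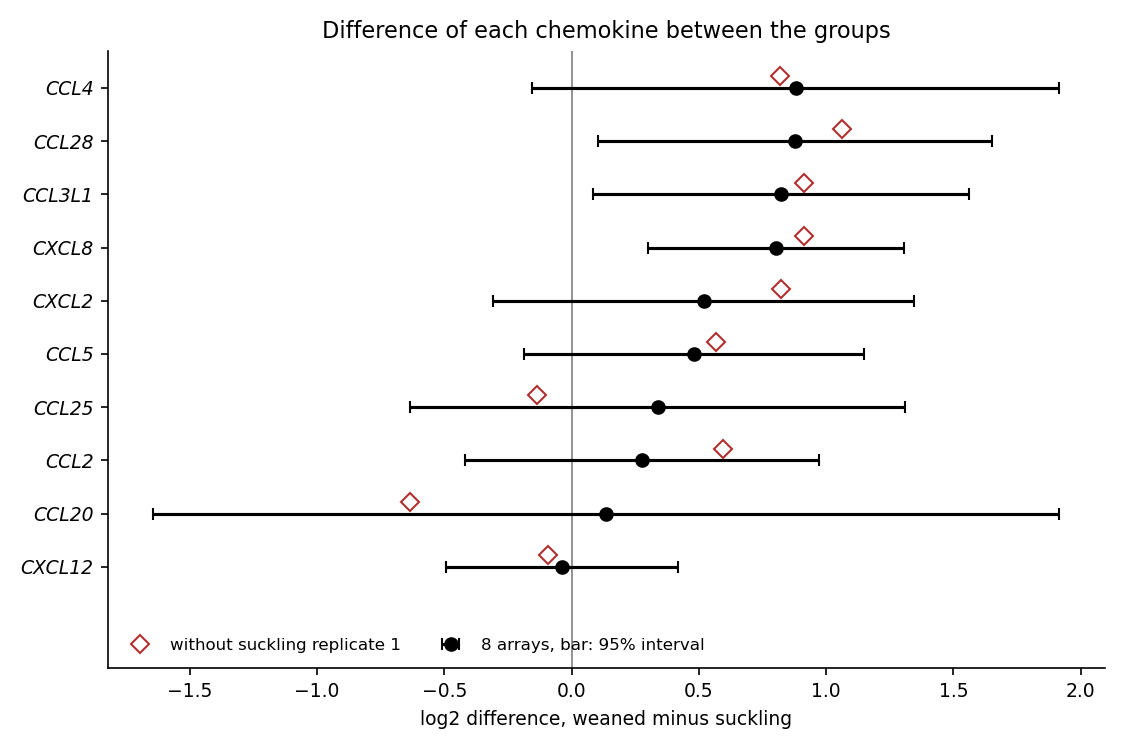
Log2 difference, weaned minus suckling (x axis), of each of the 10 chemokines: black points with 95% intervals from limma over 8 arrays, and red open diamonds for the same difference without suckling replicate 1. The intervals of CXCL8, CCL3L1 and CCL28 lie above 0, and CCL20 and CCL25 change sign without that array.

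Of the remaining chemokines on a list of 33, 14 had a probe and 13 were tested. None passed the threshold, 2 of the 13 were higher at an unadjusted limma p under 0.05 and none lower, against 7.75% and 4.58% of all tested probes, and the median log2 difference was 0.50. CCL8, which like CCL2 attracts monocytes, had levels of -1.97, -1.71, -1.20 and -1.01 in suckling and of 0.60, 1.6, -0.55 and 0.24 in weaned replicates 1 to 4. All weaned piglets were above all suckling piglets, with a log2 difference of 1.95 (limma adjusted p = 0.150, SE 0.42), a 3.86-fold higher mean. CCL24, which attracts eosinophils through CCR3, also did not overlap. Its log2 difference was 1.06 (limma adjusted p = 0.232, SE 0.30), and 1.25 without suckling replicate 1. CCL8 and CCL24 were the 2 of the 13 without overlap, where 4.93% of all tested probes had all weaned piglets higher.

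Of 23 listed chemokine receptors 14 were tested and none passed the threshold. At an unadjusted limma p under 0.05, 1 of the 14 was higher and 2 were lower, the latter being CXCR4 and ACKR3, against 7.75% and 4.58% of all tested probes, and the median log2 difference was -0.03. The higher one was ACKR4, a scavenger that removes CCL25 and some other CC chemokines without signalling, with levels of 0.73, -0.06, 0.46 and -0.09 in suckling and of 1.18, 1.27, 1.46 and 0.56 in weaned replicates 1 to 4. Its log2 difference was 0.86 (limma adjusted p = 0.254, SE 0.26). ACKR1, a scavenger on red cells and venules that binds CXCL8, CCL2 and CCL5, had a log2 difference of 0.36 (limma adjusted p = 0.590, SE 0.24), with 0.23 without suckling replicate 3 and 0.19 without weaned replicate 1.

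The cytokines and signal proteins that switch on inflammatory chemokines, including the NF-κB pathway, were a list of 36 genes, of which 20 were tested. None passed the threshold, 3 of the 20 were higher at an unadjusted limma p under 0.05 and none lower, against 7.75% and 4.58% of all tested probes, and the median log2 difference was 0.16. TNF, a cytokine that induces CXCL8, CCL2 and CCL20, had levels of -0.65, -0.48, -1.12 and -0.65 in suckling and of 0.05, 0.59, 0.26 and -0.11 in weaned replicates 1 to 4. The groups did not overlap, and the log2 difference was 0.92 (limma adjusted p = 0.151, SE 0.21). TNF was the 1 of the 20 without overlap, where 4.93% of all tested probes had all weaned piglets higher. In the deposited log2 table the TNF difference was 1.26 and passed the threshold (limma adjusted p = 0.0354). IL1B, which encodes interleukin 1 beta, had a log2 difference of 1.32 (limma adjusted p = 0.345, SE 0.50), with -2.87 in suckling replicate 1 as its lowest value. Without that array the IL1B difference was 0.96. TNF and IL1B were both highest in weaned replicate 2, as were CXCL8, CCL3L1 and CCL4. Among the weaned piglets CCL2 was instead highest in replicate 1, at 2.89, and CCL20 in replicate 3, at 4.35. The part of TNF and IL1B in the chemokine values was not tested.

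Leukocyte adhesion and homing genes, which let cells drawn by chemokines leave the blood, numbered 18, of which 11 were tested. None passed the threshold, 1 of the 11 was higher at an unadjusted limma p under 0.05, a share near the 7.75% of all tested probes, and the median log2 difference was -0.01. That gene was ITGB2, the shared chain of the leukocyte integrins, with 1.26 ± 0.26 in suckling and 2.04 ± 0.28 in weaned piglets (SD, n = 4 per group), groups that did not overlap and a log2 difference of 0.78 (limma adjusted p = 0.196, SE 0.20). ITGB2 was the 1 of the 11 without overlap, where 4.93% of all tested probes had all weaned piglets higher. SELP, the P-selectin of platelets and endothelium, had a log2 difference of -0.55 (limma adjusted p = 0.470, SE 0.28), and -0.34 without suckling replicate 4.

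Of 18 listed proteases that cut chemokines and heparan sulphate carriers that hold them, 8 were tested. None passed the threshold, 2 of the 8 were higher at an unadjusted limma p under 0.05, against 7.75% of all tested probes, and the median log2 difference was 0.20. MMP12, the macrophage elastase, had -0.04 and 0.35 in weaned replicates 1 and 2 but -3.86 and -4.14 in weaned replicates 3 and 4, against -4.93 to -3.54 in suckling piglets. Its log2 difference of 2.57 (limma adjusted p = 0.365, SE 1.02) thus came with high values in 2 of the weaned piglets, the same 2 in which CCL3L1 and CCL4 were highest. MMP14, a membrane-bound metalloprotease, had a log2 difference of 0.50 (limma adjusted p = 0.386, SE 0.21).

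For the 3 chemokines that varied most over the 8 arrays, CCL20, CCL4 and CCL28, the closest patterns were looked for among 2763 genes with a symbol, as the smallest mean absolute difference between log2 values centred on each gene's own mean. These distances are descriptions over 8 arrays, with no test, and genes picked this way share extreme arrays in part because of the choice. The closest to CCL20 was SLC5A11, a sodium-coupled inositol transporter, at 0.36 log2 units per array, against a median of 0.96 over all genes compared. TCN2, which carries vitamin B12, and SLC15A1, the peptide transporter of the enterocyte brush border, followed at 0.40 each. SLC15A1 had levels of 0.59, 3.59, 3.39 and 4.14 in suckling and of 2.76, 2.95, 4.03 and 3.16 in weaned replicates 1 to 4, lowest in suckling replicate 1 like CCL20. SLC15A1 is also 1 of the 7 measured enterocyte markers.

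The closest to CCL28 was GMPPB, an enzyme that makes the sugar donor for protein glycosylation, at 0.14, against a median of 0.58. It was followed by CITED1, a transcriptional co-regulator, at 0.20 and by DNAJC3, a chaperone regulator of the endoplasmic reticulum, at 0.21. GMPPB had levels of 0.45, -0.53, -0.19 and 0.22 in suckling and of 1.07, 0.87, 0.07 and 1.36 in weaned replicates 1 to 4, with its lowest value in suckling replicate 2 and its lowest weaned value in replicate 3, as for CCL28. The closest to CCL4 were PRCC at 0.32 and CSN1S2 and REG4 at 0.38 each, against a median of 0.67. CSN1S2, a milk casein gene, was well above background on 2 of 4 suckling and all 4 weaned arrays, and REG4 is a lectin of gut secretory cells.

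**Figure D5:**
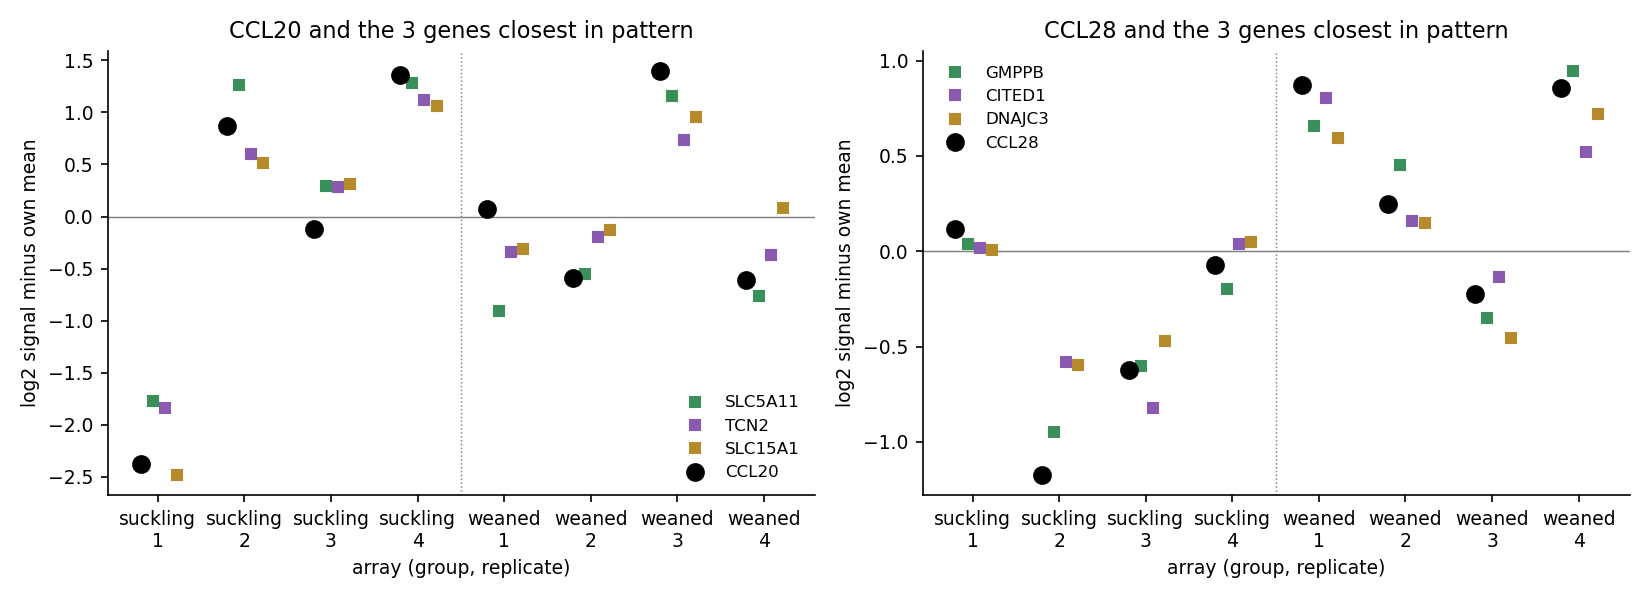
Log2 signal minus the gene's own mean (y axis) on each of the 8 arrays (x axis) for CCL20 and CCL28 (black circles) and, for each, the 3 genes with the closest pattern (coloured squares). CCL20 and its 3 genes are all lowest in suckling replicate 1, and CCL28 and its 3 genes all have their lowest weaned value in replicate 3. The genes were picked for closeness over these same 8 arrays, so shared extremes follow in part from the choice.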

How the data were processed

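The labels describe 8 piglets, 4 suckling and 4 weaned, with RNA of an integrity number of at least 7.0, labelled with Cy3. The scanner software was Agilent Feature Extraction 10.7, per the submitters' processing notes. The deposited files give per spot a background-subtracted intensity and raw median intensities. The deposited log2 table follows the order of the scanner values, with a median of 5.50 in every column; its normalisation and any constant shift are not given in the sources used here.

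Intensities of non-control spots were averaged per probe on the log2 scale, without spots marked as outliers, and the 75th percentile of each array was subtracted. RefSeq accessions named 6924 of 43603 probes through a table of the assembly Sscrofa11.1. Probes well above background on at least 4 arrays, with at least 3 values per group, were tested with limma 3.58.1 in R 4.3.3 (two-sided, group as sole term, Benjamini-Hochberg over 30554 probes, threshold 0.05). The procedure was tested on simulated data. The number of arrays limits the precision. The limma p-values set each group difference against the spread between arrays within the groups. They leave out litter and cannot separate weaning from slide or scan.

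All 10 chemokines, the measured receptors of each, the 2 genes with the smallest p of each further list and the 3 closest patterns of the 3 most variable chemokines were named, except 1 receptor that is not reported here. A gene outside the 10 was read from its brightest tested probe. CXCL6 and AMCF-II, both on the list of further chemokines, map to the same gene, which was counted once. Summed marker levels are the log2 of the summed unlogged levels. The chemokines and lists were chosen with earlier results of these data known. Alternatives were other scalings, normexp background correction on median intensities, other filters, array weights, a replicate block, the deposited table and each array left out. No sequences of these genes were used here.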

Additional observations from a re-analysis of the deposited data

Results flagged for a closer look

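In 94 groups of 4 values, 6 had 1 sample far from the other 3, as the gap to its nearest neighbour divided by the group's range, where chance flags about 1 in 20 groups, or 4.7 here. CCL2 was highest in suckling replicate 1 (0.969 of the range, level 3.28), and so was its receptor CCR2 (0.898, level -0.78). CCR3 was lowest in weaned replicate 4 (0.859, level -4.85). MMP12 was highest among the suckling piglets in replicate 3 (0.839, level -3.54), and TCN2 was highest among the weaned piglets in replicate 3 (0.84, level 1.78). The 75th percentile of the intensity was lowest in weaned replicate 1 of its group (0.905, value 316). The 2 flags of CCL2 and CCR2 come from the same array, which also had the lowest enterocyte markers; the part of that in either value was not tested.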

How the results depend on the processing

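Under none of the alternatives did any of the 10 chemokines pass limma's adjusted threshold. Over all probes 54 passed, against 0 with normexp background correction (251 at an unadjusted p under 0.05), 362 with array weights and 9 to 553 with 1 array left out. Normexp also moved the median log2 difference of all tested probes from 0.04 to -0.10. Chemokines whose groups did not overlap numbered 1, but 0 with normexp and 1 to 3 with 1 array left out. Those higher at an unadjusted limma p under 0.05, a count added after seeing the data, numbered 3, but 0 with normexp, 6 with array weights (where 13.7% of all probes were, against 7.75%) and 1 to 5 with 1 array left out. The count of chemokines with a higher mean was likewise added after seeing the data. The median log2 difference of the 10 was 0.41 to 0.71 over all alternatives.

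CXCL8, CXCL2, CCL2, CCL3L1, CCL4, CCL5 and CCL28 kept their direction under every alternative. Their size changed with normexp: the log2 difference was smaller for CXCL2 (0.15), CCL3L1 (0.41), CCL4 (0.73) and CCL28 (0.67). It was larger for CXCL8 (0.83), CCL2 (0.36) and CCL5 (0.63). Among other named genes, CCL8 fell from 1.95 to 1.21 and MMP12 from 2.57 to 0.75, while others such as ITGB2 and MMP14 rose. With array weights the log2 difference turned for CCL20 (-0.49), CCL25 (-0.015), CCR2 (0.074), CCR9 (0.059) and SLC15A1 (-0.28). With normexp it turned for CCR1 (-0.016), TCN2 (0.090), PRCC (-0.10), CSN1S2 (-0.087) and CITED1 (-0.087). With 1 array left out, the difference ranged through 0 for CXCL12 (-0.13 to 0.13), CCL20 (-0.63 to 0.61), CCL25 (-0.14 to 0.57), CCR1 (-0.035 to 0.48), CCR2 (-0.38 to 0.19), SLC15A1 (-0.48 to 0.70) and TCN2 (-0.71 to 0.27). TNF passed in the deposited table alone (1.26, limma adjusted p = 0.0354). The cause of these changes was not tested.

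Same-numbered arrays deviated from their group means with correlations of 0.37, 0.01, 0.19 and -0.02 across probes. Suckling replicate 1 was most like weaned replicate 1 (correlation 0.978), and suckling replicate 3 and weaned replicate 3 were most like each other (0.983). Same-numbered arrays also lay at the same position of their slides, so a shared litter and a shared position cannot be told apart. No label ties the numbers to litters, so they were not taken to pair the piglets. With the replicate block 0 probes passed by limma (4194 at an unadjusted p under 0.05, against 3765 without it), and 2 chemokines, CXCL8 and CCL28, were higher at an unadjusted p under 0.05. Slide as a block could not be fitted, since each slide holds 1 group.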
